A study of Rattus norvegicus with 10 samples.

Results

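SKF+Aβ+CSP-TTK21 slices were compared with slices that received CSP-TTK21 alone, so that dopamine receptor stimulation and amyloid-beta were added together on a background of the acetyltransferase activator. The comparison rests on 4 of the 10 libraries of the series, 2 in each group, taken by the group named in the sample labels. RNA came from area CA1 microdissected from hippocampal slices of adult male Wistar rats of 5 to 7 weeks. The methods describe 2 slices from 2 biological samples behind each repeat, so a library stands for a small pool and not for one animal. Slices had 30 min of basal stimulation before the drugs and were collected 1 h after treatment.

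SKF is an agonist of the dopamine receptors D1 and D5, and Aβ is the oligomerised amyloid-beta peptide that accumulates in Alzheimer's disease. CSP is a glucose-derived carbon nanosphere, and CSP-TTK21 is that nanosphere loaded with TTK21. TTK21 stimulates CBP and p300, enzymes that acetylate histones. Every one of the 4 libraries received CSP-TTK21. SKF and Aβ were both present in the one group and both absent in the other, so what SKF did and what Aβ did cannot be told apart here. A group with SKF+CSP-TTK21 and no Aβ, or with Aβ+CSP-TTK21 and no SKF, is not analysed here. The other 6 libraries were SKF, SKF+Aβ and SKF+Aβ+CSP, the last with the empty nanosphere. They entered the fit to estimate the spread, and SKF+Aβ against SKF was tested as a further comparison. Their levels are also described beside those of CSP-TTK21 alone.

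D1 and D5 receptors couple to the stimulatory G protein that activates adenylyl cyclase. Cyclic AMP then activates protein kinase A, which phosphorylates the transcription factor CREB, and CREB recruits CBP or p300 to promoters that hold a cyclic AMP response element. The genes that answer first are the immediate early genes. One set of them encodes transcription factors such as Fos and Egr1, and another encodes effectors such as the postsynaptic protein Homer1 and the phosphatase Dusp1. In CA1 this programme is known for its part in the late phase of long-term potentiation.

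The immediate early genes are described first. The promoters of 3 of them, all with an unadjusted p under 0.05 in the comparison below, are shown as examples. They hold the element through which CREB acts, in full or in its shorter form. The stretches are the 250 bases before the annotated start from RefSeq (GRCr8), written in the direction of transcription, with capitals for the full cyclic AMP response element TGACGTCA and its shorter form, TGACG or CGTCA. Btg2 lies on the minus strand at chr13:48087691-48087940, Dusp1 on the plus strand at chr10:17184603-17184852 and Nr4a1 on the plus strand at chr7:134259888-134260137.
Btg2: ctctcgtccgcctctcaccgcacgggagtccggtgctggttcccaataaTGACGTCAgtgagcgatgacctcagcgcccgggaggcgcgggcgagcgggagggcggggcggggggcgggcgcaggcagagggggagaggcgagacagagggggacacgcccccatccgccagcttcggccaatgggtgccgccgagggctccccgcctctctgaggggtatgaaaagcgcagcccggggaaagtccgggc
Dusp1: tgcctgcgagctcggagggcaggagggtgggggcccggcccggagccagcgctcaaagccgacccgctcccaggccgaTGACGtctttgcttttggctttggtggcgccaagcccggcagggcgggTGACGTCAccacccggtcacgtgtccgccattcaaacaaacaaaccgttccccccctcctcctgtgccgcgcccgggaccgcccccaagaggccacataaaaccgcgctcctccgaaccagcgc
Nr4a1: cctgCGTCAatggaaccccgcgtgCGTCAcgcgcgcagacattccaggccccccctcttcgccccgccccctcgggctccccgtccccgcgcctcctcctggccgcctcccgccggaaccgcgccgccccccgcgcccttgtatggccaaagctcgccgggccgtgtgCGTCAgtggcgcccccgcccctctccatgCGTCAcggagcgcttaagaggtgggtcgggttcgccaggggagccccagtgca
Btg2, an antiproliferative immediate early gene, and Dusp1, which dephosphorylates MAP kinases, each held 1 full element. Nr4a1, an orphan nuclear receptor, held no full element and 4 of the shorter form. Of the 63 activity-induced genes tested, 48 had an entry in the promoter table. Fos, Arc and Atf3 had none. The full element was found in 7 of the 48 promoters (14.6%), against 531 of all 33469 promoters (1.59%). Among the 12 of the 48 with an unadjusted p under 0.05 in the comparison below, 2 (16.7%) held it. That share was near the 14.6% of the whole set, so the full element did not mark the genes that differed. The shorter form, searched on both strands and counted also inside the full element, was in 28 of the 48 (58.3%), against 18.2% of all. The CArG box, which binds serum response factor, was in 4 of the 48 (8.33%), against 1.5% of all. These are matches of letters and not evidence that a factor was bound.

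No gene differed between CSP-TTK21 alone and SKF+Aβ+CSP-TTK21 once p-values were adjusted for the 15032 genes tested. The count was 0 (0%) at an adjusted p under 0.05 with a log2 fold change beyond 1.5, and 0 (0%) with no limit on the fold change (quasi-likelihood test of edgeR, Benjamini-Hochberg adjusted, n = 2 libraries per group). The lowest adjusted p was 0.963. At an unadjusted p under 0.05 there were 628 genes (4.18%), 309 higher (2.06%) and 319 lower (2.12%) with SKF+Aβ, and DESeq2 gave 362 with 0 after adjustment. An exact permutation test of 2 libraries against 2 cannot give a two-sided p below 0.333, so the p-values of single genes rest on the spread estimated over genes and groups. All p-values that follow are unadjusted values from edgeR's fit unless they are called adjusted, and no gene named here passed the adjusted test in this comparison.

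The 4 libraries held 8151626 and 7332191 counts with SKF+Aβ+CSP-TTK21, and 6935944 and 7469777 with CSP-TTK21 alone. Levels are given as normalized CPM, counts scaled to a common library total adjusted by edgeR's TMM factor, and 3 counts correspond to 0.354 to 0.444 CPM before that adjustment. Genes with at least 1 count numbered 20315 and 20048 with SKF+Aβ+CSP-TTK21, and 20704 and 20724 with CSP-TTK21 alone. Replicates were no copies of each other, since the chi-square of their counts was 9.53 and 6.71 per degree of freedom in these groups, and each was kept. Of the markers that define CA1 pyramidal cells, Wfs1 had 734 to 2662 counts and Man1a1 had 350 to 836 over the 10 libraries. Fibcd1 had 0 in all of them and Spink8 had 0 to 3. Of 11 listed CA1 markers 8 were tested. The dentate granule cell markers Prox1 and C1ql2 had 1024 to 1772 and 252 to 445 counts, so the tissue labelled CA1 was not free of their RNA. In bulk RNA, fewer cells of a type and less RNA per cell cannot be told apart.

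**Figure D1:**
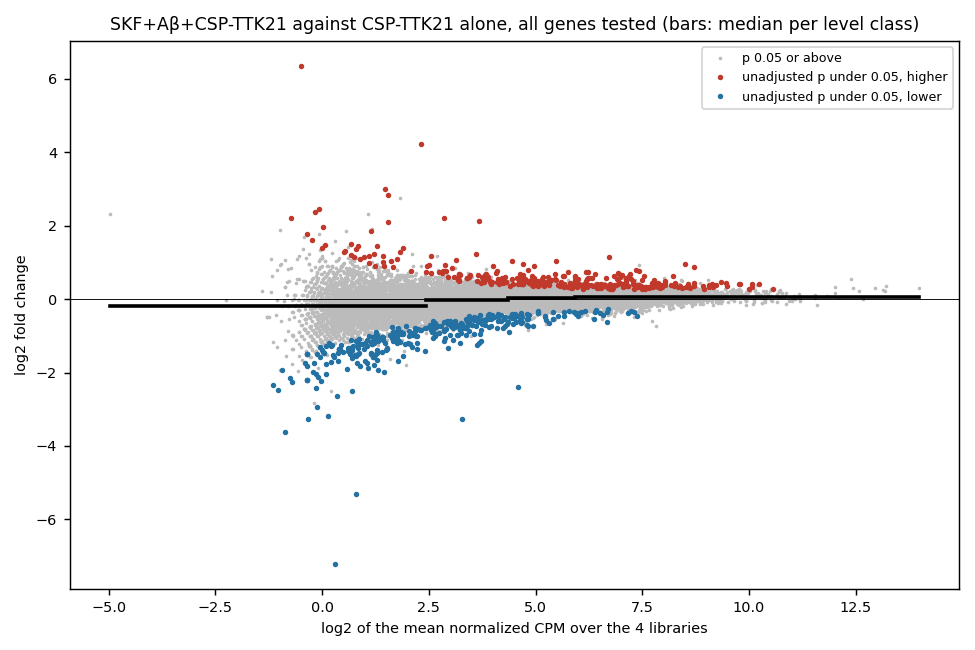
Log2 fold change of SKF+Aβ+CSP-TTK21 against CSP-TTK21 alone (vertical) against the log2 of the mean normalized CPM over the 4 libraries (horizontal) for the 15032 genes tested. Red points are the 309 higher and blue points the 319 lower genes at an unadjusted p under 0.05, and black bars give the medians of 4 level classes of 3758 genes, which go from -0.18 in the lowest to 0.07 in the highest.

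The direction of the differences depended on how strongly a gene was expressed, as the plot of change against level shows. Genes were ranked by level into 4 classes of 3758. In the lowest class, up to 5.4 CPM, the median log2 fold change was -0.18, with 37 genes higher and 164 lower at p under 0.05. In the highest class, from 61.1 CPM, the median was 0.07, with 140 higher and 17 lower. The genes with p under 0.05 and a log2 fold change beyond 1 numbered 186 (1.24%), 40 higher (0.266%) and 146 lower (0.971%). Without CSP-TTK21 alone replicate 1 the split was 78 higher and 114 lower. Of the 146 lower genes, 135 were in the lowest class, where the median standard error was 0.490 on the log2 scale. The libraries with SKF+Aβ had fewer genes detected and the lower TMM factors, 0.961 and 0.958 against 1.03 and 1.00, and the part of this in the lower values of weakly expressed genes was not tested.

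Genes of the transcription factors that neuronal activity induces had fold changes above 0 in nearly the whole list, though none passed adjustment. Of 30 listed genes 29 were in the table and all of those were tested. The log2 fold change was above 0 for 28 of the 29, against 50.7% of all genes, and its median was 0.37, against 0.00 over all genes. At p under 0.05, 9 were higher and 0 lower, where 2.06% of all genes were higher. Both SKF+Aβ+CSP-TTK21 libraries lay above both CSP-TTK21 alone libraries for 15 of them, and below for 0, where 17.6% and 16.1% of all genes did so. The lowest value was -0.14 for Fosl2 and the highest 1.14 for Btg2.

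Fos, whose protein pairs with Jun proteins to form AP-1, stood at 427 and 528 CPM with SKF+Aβ+CSP-TTK21, and at 288 and 200 CPM with CSP-TTK21 alone. The groups did not overlap, and the log2 fold change was 0.97 (standard error 0.305, 95% interval 0.31 to 1.62). Egr1, a zinc finger factor used as a marker of neuronal activity, had 511 and 576 CPM against 359 and 231 CPM. The log2 fold change of Egr1 was 0.88 (standard error 0.270, 95% interval 0.30 to 1.46). Its relative Egr2 was lower in level, at 26.1 and 32.5 CPM against 18.1 and 10.2 CPM, with a log2 fold change of 1.05 (standard error 0.391). For each of these 3 genes both SKF+Aβ+CSP-TTK21 libraries (the treated libraries) were above both others, and the CSP-TTK21 alone libraries lay further apart, as a ratio, than the treated libraries did.

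Btg2 had 165 and 123 CPM with SKF+Aβ+CSP-TTK21, against 82.4 and 48.7 CPM, a log2 fold change of 1.14 (standard error 0.383). Among the nuclear receptors of the list, Nr4a2 had the tightest replicates, with 166 and 157 CPM against 118 and 113 CPM. Its log2 fold change of 0.48 had a standard error of 0.139 and the lowest p of the list, 0.00378 in edgeR's fit. Nr4a1, whose promoter is shown above, had 145 and 132 CPM against 99.0 and 79.5 CPM, and a log2 fold change of 0.63. Nr4a3 had 138 and 158 CPM against 126 and 104 CPM and missed the threshold (log2 fold change 0.37). All 3 receptors had groups that did not overlap.

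The AP-1 partner Junb had 165 and 189 CPM against 137 and 92.6 CPM, a log2 fold change of 0.63. The stress-responsive factor Atf3 had 104 and 83.0 CPM against 61.9 and 50.8 CPM, a log2 fold change of 0.74. Klf4, a Krüppel-like factor, had 55.9 and 80.1 CPM against 32.2 and 49.3 CPM, a log2 fold change of 0.73. These 3 complete the 9 genes with p under 0.05. Other members of the AP-1 family were nearer to 0, with log2 fold changes of 0.30 for Jun, 0.06 for Jund and 0.09 for Fosl1, and the groups overlapped for each of those 3. Npas4, a factor specific to neurons, had the widest replicates, at 25.8 and 78.3 CPM against 59.1 and 12.7 CPM, and its log2 fold change of 0.53 had a 95% interval from -1.11 to 2.18.

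**Figure D2:**
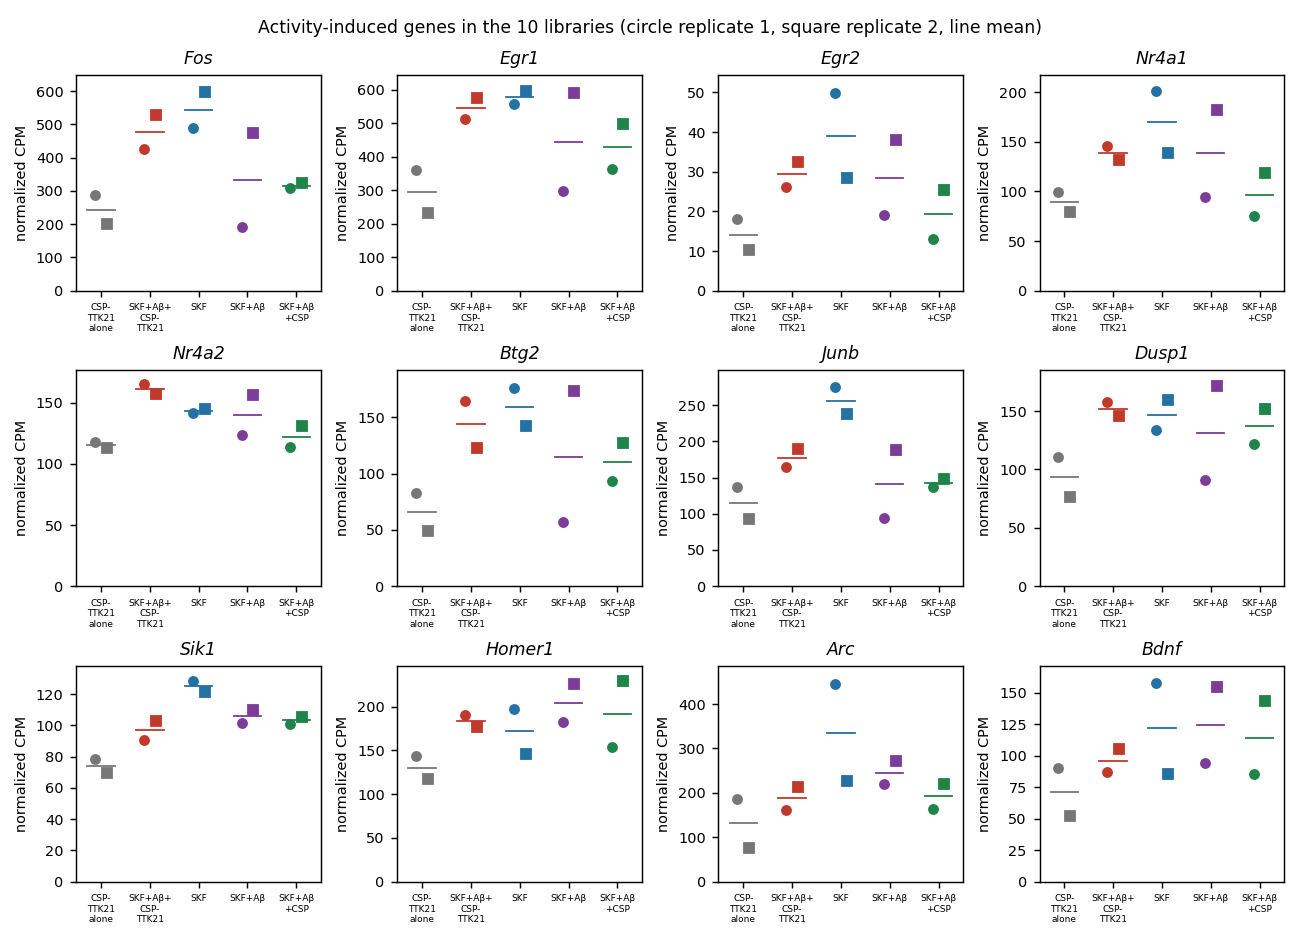
Normalized CPM (vertical, from 0) of 12 activity-induced genes in the 10 libraries, by group (horizontal), with a circle for replicate 1, a square for replicate 2 and a line for the mean. CSP-TTK21 alone has the lowest mean of the 5 groups in each panel, and for Fos it lies at 288 and 200 CPM against 427 and 528 CPM with SKF+Aβ+CSP-TTK21.

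The effector genes of the activity response were also mostly above 0, by less. Of 36 listed, 34 were tested, and 29 were above 0 (50.7% of all genes), with a median log2 fold change of 0.23. At p under 0.05, 5 were higher (2.06% of all genes) and 0 lower. Groups did not overlap for 12, all of them higher with SKF+Aβ+CSP-TTK21, where 17.6% of all genes were higher and 16.1% lower in that way. Dusp1 had 158 and 146 CPM against 110 and 76.3 CPM, a log2 fold change of 0.70 (standard error 0.247). Dusp6, a phosphatase that acts on ERK, had 81.3 and 88.7 CPM against 69.4 and 52.1 CPM, a log2 fold change of 0.48.

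Tiparp, a poly(ADP-ribose) polymerase family member, had 104 and 102 CPM against 56.4 and 70.8 CPM, a log2 fold change of 0.70 and the lowest p of the effectors (0.00354 in edgeR's fit). Sik1, a salt-inducible kinase that restrains the CREB coactivators, had 90.9 and 103 CPM against 78.8 and 69.6 CPM, a log2 fold change of 0.39. Homer1 had 190 and 177 CPM against 143 and 117 CPM, a log2 fold change of 0.50. In all 3 the groups did not overlap. Arc, whose product acts in AMPA receptor endocytosis, did overlap, at 162 and 213 CPM against 187 and 76.3 CPM, and its log2 fold change of 0.51 had a 95% interval from -0.25 to 1.27. The neurotrophin gene Bdnf overlapped as well, at 87.2 and 105 CPM against 90.6 and 52.1 CPM (log2 fold change 0.43, 95% interval -0.28 to 1.15).

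One library had a large part in these values. CSP-TTK21 alone replicate 2 was the lowest of all 10 libraries for 13 of the 29 transcription factors and for 22 of the 34 effectors. Without it the median log2 fold change was 0.22 in place of 0.37 for the transcription factors, with 22 of 29 above 0 and 3 with p under 0.05. For the effectors the median was 0.08 in place of 0.23, with 20 of 34 above 0 and 1 with p under 0.05. Without CSP-TTK21 alone replicate 1 the medians were 0.59 and 0.42, with 14 and 13 genes at p under 0.05. For the transcription factors the count of 9 became 6 without SKF+Aβ+CSP-TTK21 replicate 1 and 5 without replicate 2.

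CSP-TTK21 alone was also low against the groups that had no TTK21, a description in which every ratio shares the same 2 CSP-TTK21 alone libraries. Group means were above those of CSP-TTK21 alone for 28 of the 29 transcription factors in SKF+Aβ+CSP-TTK21, 28 in SKF, 26 in SKF+Aβ+CSP and, for SKF+Aβ, 22. Both libraries of the group lay above both of CSP-TTK21 alone for 15, 21, 5 and 3 of them in that order, where 17.6%, 17.3%, 21.6% and 17.7% of all genes did so. The counts for SKF+Aβ+CSP and SKF+Aβ were thus no higher than over all genes. For the effectors the means were above in 29, 31, 29 and 30 of 34, and both libraries lay above for 12, 14, 16 and 14. Both lay below for 0, 2, 2 and 2 of them. These counts were close, and SKF+Aβ+CSP-TTK21 did not stand out from the groups without TTK21. The plot of levels by group shows Fos at 489 and 599 CPM in SKF, which overlaps with SKF+Aβ+CSP-TTK21.

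SKF+Aβ against SKF adds Aβ alone to SKF, and shares no library with the comparison on CSP-TTK21. These comparisons therefore differ in 2 respects, the presence of CSP-TTK21 and whether SKF was added together with Aβ or stood in both groups, and these cannot be told apart. For the activity-induced transcription factors SKF+Aβ against SKF had a median log2 fold change of -0.36, with 3 genes above 0 (49.8% of all genes) and 26 below, against 0.37 on the CSP-TTK21 background. The difference between both log2 fold changes, tested gene by gene in the same fit, had a median of 0.85 over the 29 genes. It had an unadjusted p under 0.05 for 16 of them, all positive, where 616 of all genes (4.1%) were positive at that threshold. Other lists had positive median differences too. That of oligodendrocyte and myelin genes was 0.69, with 6 of 16 positive at that threshold. It was 0.40 for cytosolic ribosomal proteins (21 of 72) and 0.45 for cytokine and inflammation genes (6 of 28). Endothelial and mural markers had -0.21 and dentate granule markers -0.16. After adjustment 0 of the 15032 genes (0%) differed, with 1228 (8.17%) at an unadjusted p under 0.05 and 2 after adjustment by DESeq2.

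**Figure D3:**
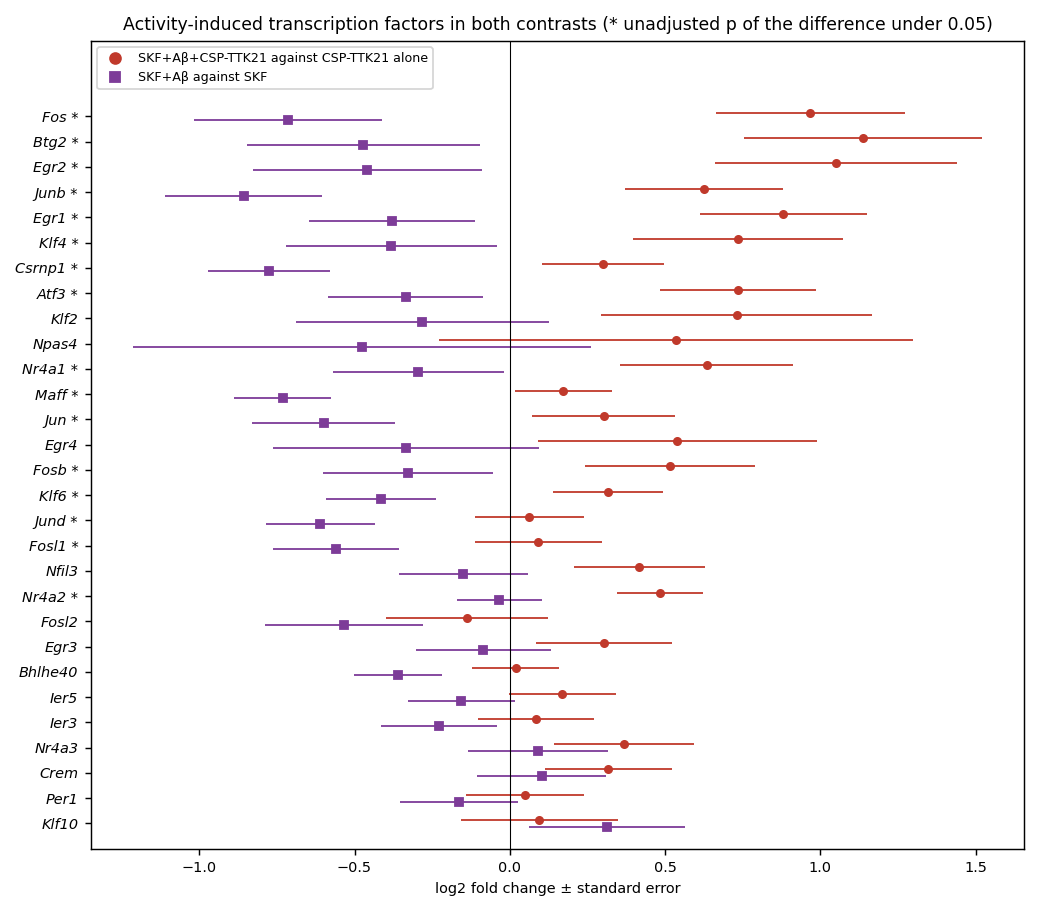
Log2 fold change ± standard error (horizontal) of the 29 activity-induced transcription factors (vertical) with SKF+Aβ+CSP-TTK21 against CSP-TTK21 alone (red circles) and with SKF+Aβ against SKF (purple squares). An asterisk marks the 16 genes with an unadjusted p of the difference under 0.05, of which Fos, at the top, has the largest difference, 1.68.

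The difference was 1.68 for Fos (standard error 0.430), which was 0.97 on the CSP-TTK21 background and -0.71 for SKF+Aβ against SKF. For Junb it was 1.48, from 0.63 and -0.86, and for Egr1 1.26, from 0.88 and -0.38. Maff, a small Maf protein, was 0.17 and -0.73, the latter with an adjusted p of 0.0416 by edgeR. The effectors differed by less, with a median difference of 0.25 and 7 genes at an unadjusted p under 0.05, all positive. Homer1 was 0.50 and 0.25, a difference of 0.25, and Tiparp was 0.70 and 0.60, a difference of 0.10, so these 2 effectors leaned the same way in both. Replicate 1 of SKF+Aβ was far below replicate 2 for Fos, at 190 and 473 CPM. Without that library the median difference of the transcription factors was 0.50, with 9 genes at an unadjusted p under 0.05. It was 0.55 without SKF replicate 1 (12 genes) and 0.60 without CSP-TTK21 alone replicate 2 (10 genes). The median difference of the effectors ranged from 0.07 without SKF replicate 1 to 0.70 without CSP-TTK21 alone replicate 1. The 7 effectors at an unadjusted p under 0.05 became 2 without CSP-TTK21 alone replicate 2 and 4 without SKF replicate 1 or SKF+Aβ replicate 1.

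Genes that passed adjustment in SKF+Aβ against SKF were read in the libraries on the CSP-TTK21 background. There were 312 of them (2.08% of genes tested), 184 higher and 128 lower with Aβ. Of the 184, 175 were also above 0 on the CSP-TTK21 background, against 50.7% of all genes, with a median log2 fold change of 0.22, and 31 of them were higher at p under 0.05 (2.06% of all genes). The median level of the 184 was 60.2 CPM, against 20.5 CPM over all genes. In the highest level class, from 61.1 CPM, all genes had a median of 0.07, with 140 higher and 17 lower at p under 0.05. These shares were not matched for level. Of the 128, 94 were below 0 (49.3% of all genes), with a median of -0.08, and 3 were lower at p under 0.05, a share near the 2.12% of all genes. The medians in SKF+Aβ against SKF itself were 0.77 and -0.82. Leaving out one of the 4 libraries moved the 175 to between 149 and 177, and the median of 0.22 to 0.12 without SKF+Aβ+CSP-TTK21 replicate 1 and 0.14 without CSP-TTK21 alone replicate 1. It moved the 94 to between 62 and 101, and the median of those 128 genes was 0.01 without CSP-TTK21 alone replicate 1, -0.01 without SKF+Aβ+CSP-TTK21 replicate 1, -0.14 without CSP-TTK21 alone replicate 2 and -0.17 without SKF+Aβ+CSP-TTK21 replicate 2.

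Gria2, the AMPA receptor subunit that limits calcium entry, was among the genes that were higher in both, at 0.32 on the CSP-TTK21 background and 0.73 with Aβ on SKF (adjusted p = 0.0355 by edgeR for the latter). The deacetylase Sirt1 was 0.38 and 0.84. Atf5 and Tgfb1 fell by 1.22 and 1.23 on the log2 scale with Aβ on SKF, at adjusted p of 0.0230 and 0.0359 by edgeR. Atf5 went from a mean of 50.6 ± 9.60 CPM in SKF to 21.8 ± 2.53 CPM in SKF+Aβ (SD, n = 2), and Tgfb1 from 24.4 ± 3.62 CPM to 10.4 ± 1.09 CPM. On the CSP-TTK21 background they lay at -0.10 and 0.02. Atf5, a stress-responsive factor, had 27.5 and 30.8 CPM against 34.2 and 28.3 CPM, and Tgfb1, an anti-inflammatory cytokine, had 16.0 and 23.8 CPM against 19.0 and 20.1 CPM. The difference between both comparisons was 1.12 for Atf5 and 1.25 for Tgfb1, with unadjusted p of 0.000699 and 0.00231 in edgeR's fit.

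Genes of the pathway upstream of the immediate early genes were split between both sides. Of 36 genes of dopamine, cyclic AMP, protein kinase A and CREB signalling 35 were tested, 15 above 0 and 20 below, with a median of -0.04 and 0 at p under 0.05 (4.18% of all genes). The median was -0.11, with 12 above 0 and 24 below, without SKF+Aβ+CSP-TTK21 replicate 2, and 0.03, with 19 and 17, without replicate 1. The receptor genes were weakly expressed, with Drd1 at 4.22 and 4.13 CPM against 3.94 and 4.81 CPM, and Drd5 at 1.66 and 2.85 CPM against 3.09 and 2.14 CPM. The log2 fold changes were -0.07 (95% interval -0.78 to 0.65) for Drd1 and -0.22 (95% interval -1.31 to 0.87) for Drd5, and a direction for either was not detectable at this depth. Adcy1 and Adcy2, both adenylyl cyclases, had treated libraries above the others, with log2 fold changes of 0.33 and 0.29. Adcy6, another cyclase, and Rapgef3, a cyclic AMP sensor outside protein kinase A, had them below, with -0.31 and -0.32.

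The genes of CBP and p300, the targets of TTK21, had overlapping levels in both groups. Crebbp, which encodes CBP, had 282 and 278 CPM against 298 and 274 CPM, a log2 fold change of -0.03 (95% interval -0.28 to 0.22). Ep300, which encodes p300, had 74.1 and 60.7 CPM against 66.1 and 61.8 CPM, a log2 fold change of 0.08 (95% interval -0.22 to 0.38). Over 29 acetyltransferase, deacetylase and bromodomain genes tested, 15 were above 0 and 14 below. The split was 21 and 8 without CSP-TTK21 alone replicate 1, and 11 and 18 without replicate 2. Sirt1 had the only p under 0.05 (4.18% of all genes). Sirt1 had 37.6 and 35.2 CPM against 28.3 and 27.5 CPM.

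Genes of amyloid precursor processing and of Alzheimer's disease had a median of 0.05, with 17 of 27 above 0 and 0 at p under 0.05 (4.18% of all genes). The median was 0.08 without CSP-TTK21 alone replicate 1. App, the precursor of Aβ, had a log2 fold change of 0.16 (95% interval -0.14 to 0.45). Cytokine, chemokine and acute inflammation genes had a median of 0.06, with 2 higher and 1 lower at p under 0.05 among 28 (4.18% of all genes in both directions). The sign of that median was not stable, and with limma on all libraries it was -0.02. It was -0.46, with 4 of 29 above 0, without SKF+Aβ+CSP-TTK21 replicate 1, -0.19 without CSP-TTK21 alone replicate 2 and 0.33 without CSP-TTK21 alone replicate 1. Il1a, the interleukin 1 alpha gene, had 51.1 and 35.6 CPM against 29.3 and 27.9 CPM, a log2 fold change of 0.60, and the mRNA-destabilising Zfp36, itself an immediate early gene, was 0.54. Selp, the endothelial adhesion molecule P-selectin, was the lower one, at 1.15 and 0.998 CPM against 6.47 and 2.27 CPM, with a 95% interval of the log2 fold change from -3.56 to -0.43. Il6 and Cxcl1 had groups that overlapped, with treated libraries far apart, 46.3 and 15.8 CPM for Il6, and 86.0 and 24.7 CPM for Cxcl1.

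Of 21 interferon and antigen presentation genes 6 were above 0, with a median of -0.16, and the treated libraries stood apart. Against the CSP-TTK21 alone libraries the median was -0.03 and -0.05 for SKF+Aβ+CSP-TTK21 replicate 1 and -0.67 and -0.42 for replicate 2. Without SKF+Aβ+CSP-TTK21 replicate 1 the median was -0.58, and without CSP-TTK21 alone replicate 2 it was -0.29. Without SKF+Aβ+CSP-TTK21 replicate 2 it stayed at -0.16, with 10 genes above 0 and 13 below. Tap1, a peptide transporter of antigen presentation, had 14.3 and 16.7 CPM against 23.4 and 26.5 CPM, and a log2 fold change of -0.69 with the only p under 0.05 in that list (2.12% of all genes were lower). Irf7 and Mx1, an interferon regulator and an antiviral GTPase, were -0.94 and -0.81 at levels under 6 CPM. Genes of TGF-beta and Wnt signalling had 12 of 28 above 0 (8 without SKF+Aβ+CSP-TTK21 replicate 2), and Wnt10b, a Wnt ligand, was -1.35, at 0.639 and 0.855 CPM against 1.69 and 2.14 CPM. Irf7, Mx1 and Wnt10b were in the lowest level class, where the median of all genes was -0.18.

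Genes of inhibitory and excitatory transmission were more often above 0 than below, where 50.7% of all genes were above 0. Of 24 GABA receptor and interneuron genes 18 were above 0, with a median of 0.15, and 5 were higher (2.06% of all genes) and 0 lower at p under 0.05. The receptor subunit Gabrb2 had close replicates, at 82.1 and 77.6 CPM against 61.1 and 59.4 CPM, a log2 fold change of 0.41. Gabra5, which encodes another subunit of the GABA-A receptor, was 0.40, and the interneuron peptide gene Vip was 0.61. Of 33 glutamate receptor and postsynaptic genes 22 were above 0, and the groups did not overlap for 13 that were higher (17.6% of all genes) and 2 that were lower (16.1%). The median of this list was 0.08, near the 0.07 of all genes in the highest level class. The 5 GABA genes at p under 0.05 became 1 without SKF+Aβ+CSP-TTK21 replicate 1 and 2 without CSP-TTK21 alone replicate 1. The median of the GABA list was 0.08 without CSP-TTK21 alone replicate 1, and that of the glutamate list went from 0.08 to 0.15 without SKF+Aβ+CSP-TTK21 replicate 1.

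Among 31 voltage-gated and related ion channel genes, 19 were above 0 with a median of 0.06 (0.10 with limma). Without CSP-TTK21 alone replicate 2 it was 15 above and 16 below. Without CSP-TTK21 alone replicate 1 it was 23 above and 8 below, with a median of 0.12. At p under 0.05, 4 were higher (2.06% of all genes) and 1 lower (2.12%). These 5 became 1 without SKF+Aβ+CSP-TTK21 replicate 1 and 2 without CSP-TTK21 alone replicate 2. Kcnn2, a calcium-activated potassium channel that shapes the afterhyperpolarisation, had 22.6 and 21.7 CPM against 13.9 and 15.8 CPM, a log2 fold change of 0.58. Kcnj6 and Kcnj3, subunits of G protein-gated potassium channels, were 0.42 and 0.29. Cacna1g, a T-type calcium channel, was -0.54, at 61.1 and 74.1 CPM against 119 and 77.3 CPM. Kcnn2 and Kcnj6 had much the same log2 fold changes in SKF+Aβ against SKF, 0.58 and 0.45.

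**Figure D4:**
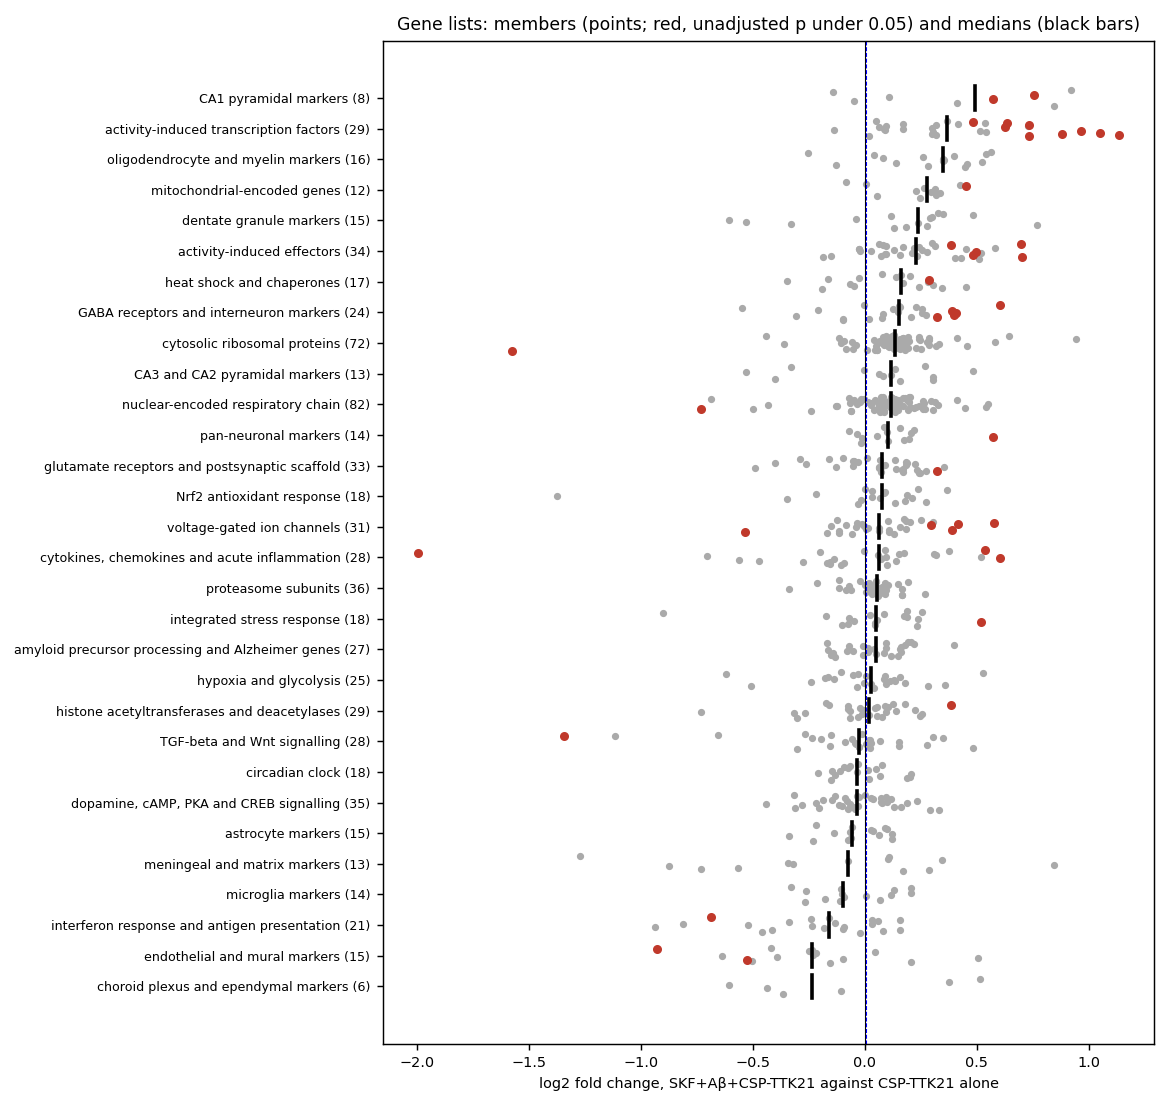
Log2 fold change of SKF+Aβ+CSP-TTK21 against CSP-TTK21 alone (horizontal) for the members tested of 30 gene lists (vertical, with the number tested in brackets), in grey or, at an unadjusted p under 0.05, in red. Black bars are medians and the dashed line is the median of all genes tested, and the transcription factors of the activity response have 9 red points, the most of any list.

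Marker lists of cell types had medians above or below 0 beside these lists, and their part in the results was not tested. No marker passed adjustment. CA1 pyramidal markers had a median of 0.49 with 6 of 8 above 0, and for 2 the treated libraries were both above the others (17.6% of all genes). Dcn stood in the CA1 list and also among the meningeal and matrix markers. The CA1 median was 0.14, with 4 of 8 above 0, without CSP-TTK21 alone replicate 2, and 0.16, with 5 of 8, without SKF+Aβ+CSP-TTK21 replicate 1. The summed level of the CA1 markers was 1011 and 729 CPM with SKF+Aβ+CSP-TTK21 and 722 and 525 CPM with CSP-TTK21 alone. Pan-neuronal markers summed to 10106 and 10963 CPM against 9524 and 9879 CPM, with a median of 0.10 over 14 genes (0.17 without CSP-TTK21 alone replicate 2). That median was 0.065, with 9 of 14 above 0, without SKF+Aβ+CSP-TTK21 replicate 2, and 0.15 without SKF+Aβ+CSP-TTK21 replicate 1. Dentate granule markers summed to 1645 and 1346 CPM against 1111 and 1321 CPM, with 11 of 15 above 0 and a median of 0.24. The treated libraries were both above the others for 8 of the 15 (17.6% of all genes) and both below for 1 (16.1%). Leaving out one of the 4 libraries gave medians of 0.17 to 0.26.

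Oligodendrocyte and myelin genes had 14 of 16 above 0 and a median of 0.35, but the groups overlapped for all 16. Their sum was 27717 CPM in SKF+Aβ+CSP-TTK21 replicate 1 and 16293 CPM in replicate 2, against 16774 and 16574 CPM, so the value came from 1 library, without which the median was -0.12. Endothelial and mural markers had 12 of 15 below 0 and a median of -0.24 (-0.36 without CSP-TTK21 alone replicate 1), with sums of 227 and 228 CPM against 289 and 267 CPM. Tie1 and Flt1, both endothelial receptor kinases, were -0.93 and -0.53. Sums overlapped for astrocyte markers, at 9688 and 10976 CPM against 8714 and 11810 CPM, and for microglia markers, at 295 and 410 CPM against 296 and 390 CPM. Choroid plexus RNA was scarce, with 0 to 27 counts of Ttr in the 10 libraries.

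Genes of protein synthesis and energy metabolism had medians a little above 0. Of 72 cytosolic ribosomal protein genes 62 were above 0 with a median of 0.14, and 1, Rpl10l, had a p under 0.05, in the lower direction (2.12% of all genes). Of 82 nuclear respiratory chain genes 66 were above 0 with a median of 0.11. Without CSP-TTK21 alone replicate 1 the respiratory chain median was 0.02, with 45 above 0 and 38 below, and without replicate 2 it was 0.22. The ribosomal median was 0.06 without CSP-TTK21 alone replicate 1, and 0.20, with 64 genes above 0 and 8 below, without replicate 2. Of 12 mitochondrial genes 11 were above 0 with a median of 0.28, and Mt-nd4 had the only p under 0.05 (log2 fold change 0.45, with 2.06% of all genes higher). Without SKF+Aβ+CSP-TTK21 replicate 2 the mitochondrial median was 0.11. The median of all genes in the highest level class was 0.07. Many ribosomal protein genes have closely similar pseudogenes, so their counts are uncertain.

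Outside the activity lists, the 10 genes in each direction with the lowest p among those whose groups did not overlap were led by Nov on the higher side and Il18bp on the lower side. Nov, a matricellular CCN protein that is also one of the CA1 markers, had the lowest p of them, 0.000177 in edgeR's fit, and close replicates, at 218 and 216 CPM against 137 and 120 CPM. Its log2 fold change was 0.76 (standard error 0.148, 95% interval 0.44 to 1.07). Neurod6, a factor of pyramidal neurons, had 181 and 149 CPM against 119 and 103 CPM, a log2 fold change of 0.57. Epha7, an ephrin receptor, and Ano3, an anoctamin, were 0.68 and 0.79. The cyclin Ccnl1, which acts in RNA processing, had 192 and 169 CPM against 121 and 124 CPM, a log2 fold change of 0.56.

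Nts, the neuropeptide neurotensin, had 31.1 and 10.3 CPM against 4.50 and 4.95 CPM, a log2 fold change of 2.13 (standard error 0.546). The treated libraries differed from each other by more than one of them did from the control libraries. Cftr, a chloride channel, had 8.05 and 1.85 CPM against 0.281 and 0.936 CPM, and Mstn, a growth factor of the TGF-beta family, had 4.09 and 5.42 CPM against 0.703 and 1.47 CPM. The meiotic helicase Hfm1 and the zinc finger gene Zfp677 were 0.93 and 1.84, and neither was above 11 CPM in these 4 libraries.

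The 10 lower genes were weakly expressed except Dennd3, a Rab regulator, at 24.4 and 22.0 CPM against 39.5 and 37.7 CPM, a log2 fold change of -0.73 (standard error 0.191). Il18bp, which binds and neutralises interleukin 18, had 2.56 and 3.28 CPM against 7.46 and 8.02 CPM, a log2 fold change of -1.41 (standard error 0.318). Elmo3, an engulfment adaptor, had 4.22 and 6.27 CPM against 11.4 and 11.4 CPM, a log2 fold change of -1.12. Ggt1, a gamma-glutamyl transferase, and the aquaporin gene Aqp12a were -2.65 and -2.50, with treated libraries at or under 0.57 CPM. Acr, Baiap3, Fermt1, Nlrc3 and Znf750 lay between -1.67 and -1.19.

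**Figure D5:**
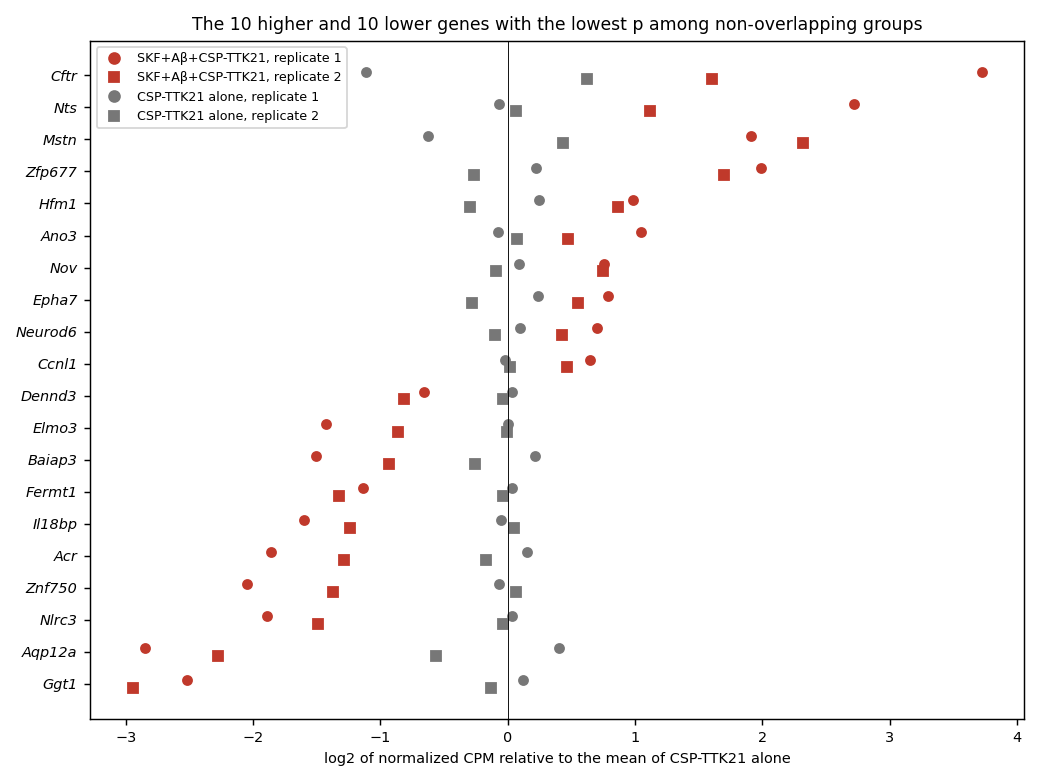
Log2 of the normalized CPM in each of the 4 libraries relative to the mean of CSP-TTK21 alone (horizontal) for the 10 higher and 10 lower genes with the lowest unadjusted p among those whose groups do not overlap (vertical). Red marks SKF+Aβ+CSP-TTK21 and grey CSP-TTK21 alone, with circles for replicate 1 and squares for replicate 2, and Cftr and Nts show the widest gap between the treated libraries.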

How the data were processed

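The authors deposited raw counts per rat Ensembl gene for 10 libraries (32545 genes), one column per library and not normalized. The methods name Trim Galore, removal of PCR duplicates with Samtools, TopHat2, Cufflinks and Cuffdiff, with an index of a rat genome and, in a later sentence, a mouse assembly. The submitters' processing notes list STAR, RSEM, HISAT2, Salmon and GRCh38, without roles. Which program counted the reads, and with what strand setting, is not given in the sources used here, so overlapping genes and near-identical copies are uncertain.

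The tests used edgeR 4.0.16 in R 4.3.3. filterByExpr kept 15032 genes, totals were scaled by TMM, and one quasi-likelihood fit held a mean for each of the 5 groups (2 libraries each, totals of 6753742 to 8473407, common biological coefficient of variation 0.136). Genes were called at an adjusted p under 0.05 with a log2 fold change beyond 1.5, the fold limit of the methods. Alternatives were the replicate number as a block, the 4 libraries alone, DESeq2 1.42.0, limma 3.58.1, RLE factors, all genes unfiltered, 10 or more counts per library, and leaving out single libraries. The fit was tested on simulated data.

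The 146 genes that could be named were any called genes (there were none), the 10 per direction with the lowest p among named genes at a mean of 1 CPM or more whose groups did not overlap, up to 4 per list with the lowest p, and 17 fixed genes. A few genes that this rule picked are not reported here. Members of both activity lists beyond these, and Vip and Kcnj3, were named after their values were seen, to account for all members with an unadjusted p under 0.05 or for the spread of the list. The comparison, the 30 lists and the genes were chosen with earlier results of these data known. The study calls the repeats of a treatment biological replicates, and the labels do not tie libraries to animals, so p-values measure the spread between these libraries. Promoters are from RefSeq on GRCr8, of which no coordinate was joined to the counts, and genes were matched by symbol.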

Additional observations from a re-analysis of the deposited data

How the results depend on the processing

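No gene was called in the comparison under any alternative but the absence of a filter on low counts. That fit tested 25251 genes and called 23 with the fold limit and 63 without it, and 140 genes differed from SKF+Aβ against SKF. It pooled the spread over all genes (126255 degrees of freedom, against 10.4 to 13.4 with the filter), so the spread of the single gene was not used there, and 19 of the named genes, Fos, Egr1, Btg2, Nr4a1, Dusp1, Tiparp, Nov and Nts among them, passed in it alone. The count at an unadjusted p under 0.05 and a log2 fold change beyond 1 was 186, and became 409 without a filter, 87 with DESeq2 and 59 with at least 10 counts in every library. Leaving out a library gave 185 to 267. The difference from SKF+Aβ against SKF had 2 genes with DESeq2, and 0 to 1 when a library was left out, the 1 without SKF+Aβ replicate 2; the cause was not tested. With one library left in a group, that library was assumed to vary like the other groups.

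Without a library, the number of genes at an unadjusted p under 0.05 went from 336 (without SKF+Aβ+CSP-TTK21 replicate 1) to 1030 (without CSP-TTK21 alone replicate 2), against 628 with all. With the replicate number as a block it was 760, with 224 genes beyond a log2 fold change of 1 and 0 called. The deviations of libraries with the same number had r = -0.0409 across 15032 genes in the 2 groups compared, and 0.145 in SKF and SKF+Aβ. Nothing in the labels says what a shared number means, so the block was not used as evidence. The medians of the activity lists kept their sign, 0.22 to 0.59 for transcription factors and 0.08 to 0.42 for effectors, when a library was left out. The median over all genes stayed between -0.03 and 0.02.

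Of 1587 values of named genes under the alternatives, 1541 kept their direction and their side of an adjusted p of 0.05. The lowest adjusted p of the main fit was 0.963, so keeping that side says little about stability. Of the other values, 19 passed the threshold and 27, for 20 genes, turned in direction. With all libraries and the settings of the main text, none of those 20 had an unadjusted p under 0.05. Leaving out one library gave log2 fold changes of -0.61 to 0.013 for Aif1, -0.23 to 0.038 for Atf5, -1.94 to 0.33 for Ccdc153, -0.087 to 0.031 for Crebbp, -1.03 to 0.93 for Cxcl1, -0.60 to 0.095 for Dbp, -0.20 to 0.087 for Drd1, -0.66 to 0.13 for Drd5, -0.073 to 0.20 for Ep300 and -0.022 to 0.80 for Ermn. The values were -0.063 to 0.33 for Gja1, -0.46 to 1.07 for Il6, -1.46 to 0.11 for Kcnj13, -0.11 to 0.96 for Mal, -0.22 to 0.33 for S100b, -0.30 to 0.29 for Tgfb1, -0.26 to 0.78 for Tmem212, -0.97 to 0.18 for Tyrobp, -0.000599 to 0.96 for Ugt8 and -0.10 to 1.497 for Wfs1. With limma Tgfb1 was -0.000243. At 2 libraries per group, differences of genes below 5.4 CPM were the least determined.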
